A study of Apostichopus japonicus with 9 samples.

Results

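In the sea cucumber Apostichopus japonicus, 100 gene models of the respiratory tree were chosen for steady transcript levels across 3 levels of dissolved oxygen. They were the steadiest only within a band of levels and under the scaling described below, not among all models. They were taken from 27214 models listed in at least 1 library. Of these, 13933 passed a filter on low counts, and 2098 of those had a mean of at least 50 and under 1000 CPM in the control group (CPM, counts scaled to a common library size, here after TMM, which corrects each library for its composition). The 100 models with the smallest SD of log2 CPM over the 9 libraries were the members. The other 1998 models at the same levels, called the other models of the level band below, were set beside them. The SD that chose the members was measured in the same libraries as the levels given here, so these levels are a description, without a test. Animals had been kept for 3 days at a dissolved oxygen of about 2 mg/L (DO2, reached by nitrogen aeration and defined by the submitters as hypoxia), about 4 mg/L (DO4, reached in the same way) or about 8 mg/L (DO8, the control). Each group had 3 libraries of poly(A) RNA. Every library was a pool to which 3 individuals contributed equally, so the spread between single animals was not measured. The labels give no strain, sex, age, tank or batch.

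Sea cucumbers draw sea water into the respiratory tree, a branching organ inside the body, and take up much of their oxygen there. Studies that measure transcripts by quantitative PCR divide each level by that of a reference transcript, which is meant to have the same level in all samples compared. A reference that moves with the treatment passes its movement on to every transcript measured against it. In mammalian cells, for example, the glycolytic enzyme GAPDH is a common reference and is also known to respond to low oxygen. Each identifier consists of a scaffold name and a model number, and 0 of the 27214 matched the supplied RefSeq gene table of this species. The members are therefore given by identifier, without a function. Neither the organ label nor the usual reference genes could be checked against named genes.

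Library totals ran from 1536327 (DO4 library 1) to 4348873 (DO2 library 3) expected counts. Every member was listed in all 9 libraries, with 42 counts at the least and a median of 307. The TMM factor of DO2 library 3 was 0.458, against 0.771 to 1.271 in the other libraries. In these pooled tissue samples, fewer cells of a type and less RNA per cell cannot be told apart.

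The steadiest member was mRNA.scaffold129.extract.exonerate.703. It had 297, 265 and 271 CPM in DO2, 237, 234 and 248 CPM in DO4, and 282, 264 and 284 CPM in DO8. All 3 DO4 libraries lay below every DO2 and every DO8 library, so its spread, an SD of 0.12 log2 units with a highest level 1.27 times the lowest, still had an order by group. Model evm.model.scaffold16.28, ranked next, had 55.5, 52.7 and 54.1 CPM in DO2, 43.4, 45.8 and 54.4 CPM in DO4, and 54.4, 50.02 and 47.2 CPM in DO8. The 3 groups overlapped, and its SD of 0.13 was as small as the 0.13 that counting error alone gives at its depth.

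Model evm.model.scaffold1569.1 had 114, 122 and 163 CPM in DO2, 126, 112 and 131 CPM in DO4, and 140.1, 126 and 129 CPM in DO8. Its groups overlapped, with the widest spread in DO2, where library 3 was the highest of all 9. Model mRNA.scaffold203.exonerate.878 had 101, 115 and 106 CPM in DO2, 108, 112 and 124 CPM in DO4, and 104, 113 and 83.2 CPM in DO8. A single library, DO8 library 3, was lower than the rest of an otherwise narrow range. Model mRNA.scaffold265.exonerate.431 had 289, 258 and 310.1 CPM in DO2, 268, 335 and 266 CPM in DO4, and 247, 283 and 337 CPM in DO8. Here each group held both low and high libraries, and the group means were within 0.01 log2 units of each other for DO2 minus DO8 (-0.01 ± 0.15, SE, n = 3 per group) and for DO4 minus DO8 (0.01 ± 0.17).

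The remaining members among the 10 steadiest had SDs of 0.16 to 0.17. Model evm.model.scaffold929.9 had 226, 214 and 197 CPM in DO2, 179.6, 217 and 187 CPM in DO4, and 157, 195 and 184 CPM in DO8. All of its DO2 libraries lay above every DO8 library, by a difference of means of 0.26 ± 0.11 log2 units (SE). Model evm.model.scaffold1059.9 ranged from 56.2 CPM (DO4 library 1) to 81.3 CPM (DO4 library 3), so that the DO4 group alone spanned the other groups. Model evm.model.scaffold849.5 ranged from 184 CPM (DO4 library 2) to 283 CPM (DO8 library 3), and evm.model.scaffold1383.9 from 91.9 CPM (DO8 library 2) to 129.96 CPM (DO4 library 2). Model evm.model.scaffold1227.1 had 60.2, 49.5 and 41.0 CPM in DO2, 57.0, 57.8 and 55.6 CPM in DO4, and 53.3, 52.2 and 46.1 CPM in DO8. Its DO4 libraries lay just above every DO8 library, while its DO2 libraries spanned both.

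**Figure D1:**
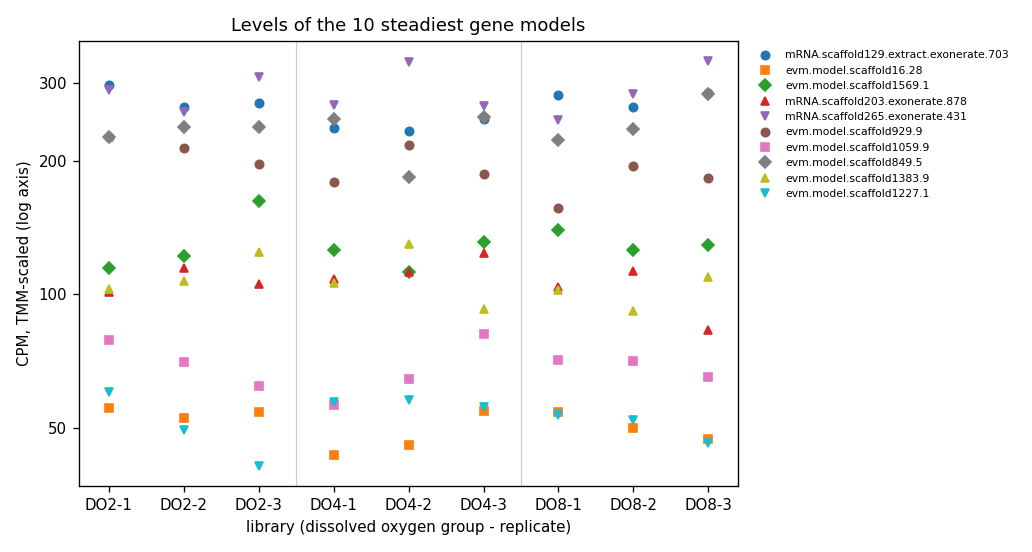
CPM after TMM scaling (vertical, log axis) of the 10 members with the smallest SD, 1 marker per library, with the 3 DO2, 3 DO4 and 3 DO8 libraries from left to right. The steadiest member stays between 234 and 297 CPM, with its 3 DO4 libraries below the others.

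Over all 100 members the SD of log2 CPM ran from 0.12 to 0.26, with a median of 0.23, against a median of 0.63 for the other 1998 models of the level band. The highest library of a member was 1.27 to 1.88 times its lowest, with a median of 1.59. An SD under 0.2 was found for 25 members. Counting error at the depth of each library accounts for a median of 17.04% of a member's variance, and for more than 50% in 2 members. The other members spread mostly beyond counting error. Within groups, the median SD of the members was 0.19 in DO2, 0.22 in DO4 and 0.15 in DO8 (n = 3 each). The other models of the level band had the same order, with medians of 0.53 in DO2, 0.65 in DO4 and 0.34 in DO8. DO2 had the smallest SD of the 3 groups for 29 members, DO4 for 25 and DO8 for 46.

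**Figure D2:**
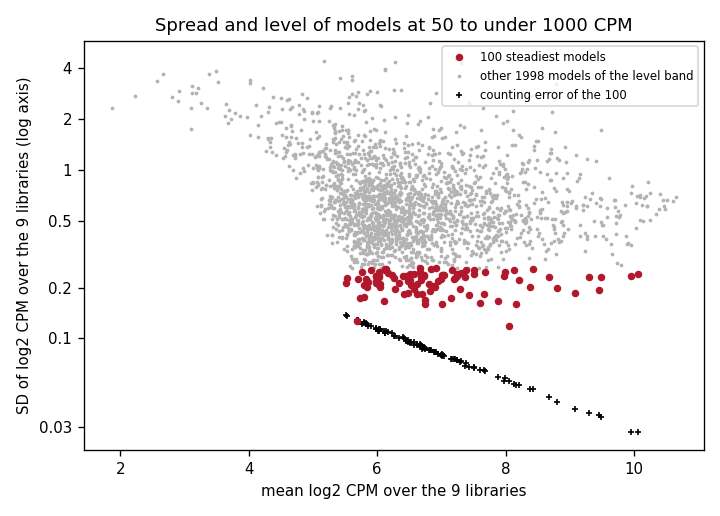
SD of log2 CPM over the 9 libraries (log axis) against mean log2 CPM for the 100 members (red), the other 1998 models of the level band (grey) and the SD that counting error alone gives each member (crosses). Members form the lower edge at an SD of up to 0.26, and almost all of them lie above the crosses.

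The boundary of the list was gradual. The last members were evm.model.scaffold1330.2, evm.model.scaffold276.2 and evm.model.scaffold912.3, with SDs of 0.259, 0.26 and 0.26. The nearest models outside, evm.model.scaffold363.21, evm.model.scaffold1631.11 and evm.model.scaffold223.53, had SDs of 0.26, 0.261 and 0.261. The lowest DO8 mean among members was 50.02 CPM, in evm.model.scaffold811.1, which had 44.5, 61.0 and 41.0 CPM in DO2, 44.2, 62.3 and 61.7 CPM in DO4, and 50.6, 47.0 and 52.4 CPM in DO8. Just under 50 CPM, evm.model.scaffold843.7 (49.1 CPM in DO8) and evm.model.scaffold275.25 (47.8 CPM) had SDs of 0.231 and 0.235 and were left out by level alone, as were 150 of 11703 models under that bound in all. The highest DO8 mean among members was 996 CPM, in mRNA.scaffold59.extract.exonerate.1120, with 854, 865 and 1090.2 CPM in DO2, 1276, 848 and 1144 CPM in DO4, and 1095, 812 and 1082 CPM in DO8. Of the 132 models at or over 1000 CPM, 0 had an SD at or below that of the 100th member.

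Differences between group means of the members were small, as a small SD over all libraries requires. The median absolute difference of log2 CPM was 0.12 for DO2 minus DO8, 0.15 for DO4 minus DO8 and 0.17 for DO2 minus DO4, beside 0.43, 0.54 and 0.36 for the other models of the level band. DO2 was above DO8 in 44 of the 100 members, against 40.6% of the other models of the level band. DO4 was above DO8 in 41, against 33.6%, and DO2 was above DO4 in 55, against 57.9%. Over all 13933 models that passed the filter these shares were 49.4%, 48.6% and 51.0%. The level band was set on the DO8 mean, so its own shares against DO8 are not those of all models. Each pair of these comparisons shares the libraries of 1 group. No member differed by more than 0.5 log2 units in any comparison (0 of 100 in each), against 44.1%, 54.0% and 35.7% of the other models in the same order. By more than 0.25 log2 units differed 14, 23 and 18 members, against 68.0%, 77.4% and 61.9%.

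**Figure D3:**
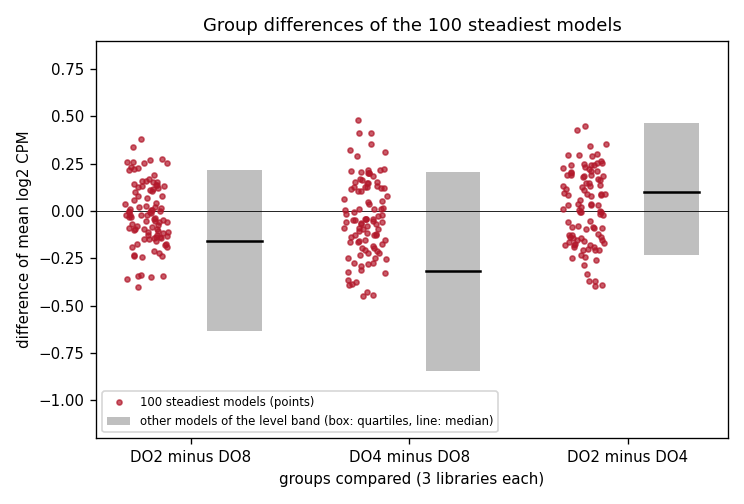
Difference of mean log2 CPM between groups for the 100 members (points, spread sideways at random) and for the other 1998 models of the level band (grey box from the lower to the upper quartile, black line at the median). The members lie between -0.45 and 0.48 in all 3 comparisons, and the medians of the other models are -0.16, -0.32 and 0.10. Over all 13933 models that passed the filter (not drawn) the medians are -0.009, -0.027 and 0.015.

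The largest differences among members show how much movement the rule lets through. Model evm.model.scaffold580.2 had 54.3, 66.6 and 52.6 CPM in DO2, 62.1, 59.4 and 71.0 CPM in DO4, and 76.0, 73.5 and 79.4 CPM in DO8. Every DO2 and every DO4 library lay below every DO8 library, with differences from DO8 of -0.40 ± 0.11 in DO2 and -0.25 ± 0.08 in DO4 (log2, SE). Model mRNA.scaffold18.extract.exonerate.2555 had 151, 136 and 153 CPM in DO2, 128, 117 and 174 CPM in DO4, and 123, 109 and 106 CPM in DO8. Its DO2 libraries lay above every DO8 library, by 0.38 ± 0.09, while DO4 overlapped both. Model evm.model.scaffold724.15 had 118, 102 and 108 CPM in DO2, 129, 143 and 153 CPM in DO4, and 134, 172 and 121 CPM in DO8, and DO2 lay below all other libraries.

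At 4 mg/L, evm.model.scaffold1330.2 was the member that stood highest over the control, with 124, 107 and 107 CPM in DO2, 123, 146 and 137 CPM in DO4, and 118, 88.1 and 86.0 CPM in DO8 (DO4 minus DO8, 0.48 ± 0.16). Model evm.model.scaffold1078.14 stood lowest, with 72.8, 85.6 and 77.4 CPM in DO2, 53.6, 65.8 and 55.8 CPM in DO4, and 73.6, 82.2 and 83.2 CPM in DO8. Its DO4 libraries lay below all 6 others, while DO2 and DO8 had nearly equal means (DO2 minus DO8, -0.02 ± 0.09). Model evm.model.scaffold551.18, at 123, 132 and 137 CPM in DO2, 106, 98.8 and 125 CPM in DO4, and 127, 158 and 165 CPM in DO8, was also lower in every DO4 than in every DO8 library (-0.44 ± 0.15). Between the low-oxygen groups, mRNA.scaffold331.extract.exonerate.3558 was higher in DO2, with 177, 267 and 208 CPM in DO2 against 157, 171 and 144 CPM in DO4. Its DO8 libraries, at 178, 179.8 and 181 CPM, were nearly equal to each other. Model evm.model.scaffold912.3 was lower in DO2, with 128, 117 and 88.5 CPM in DO2 against 132, 142 and 163 CPM in DO4 (-0.40 ± 0.18), and had 105, 104 and 117 CPM in DO8.

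The libraries of DO2 and DO8 did not overlap for 12 of the 100 members (6 with DO2 above, 6 below), beside 14.2% of all models tested and 19.7% of the whole level band, members included. For DO4 and DO8 there were 18 such members (7 with DO4 above, 11 below), beside 15.8% and 25.3%. For DO2 and DO4 there were 12 (8 with DO2 above, 4 below), beside 7.74% and 8.58%. Nothing follows from these counts about the members, since the rule used the same libraries. The same holds for edgeR's quasi-likelihood test, which called 0 members in each of the 3 comparisons after Benjamini-Hochberg adjustment over 13933 models, of which it called 0% in each. At an unadjusted p under 0.05 it again counted 0 members, beside 5.96% of all models for DO2 and DO8, 8.53% for DO4 and DO8 and 4.91% for DO2 and DO4. DESeq2, run without the filter, called 0 members after adjustment. Beside this it called 0.405%, 0.912% and 0.197% of the 15789, 13706 and 13706 models with an adjusted p-value, in that order. Limma on log2(FPKM + 1) called 0, beside 0.00718%, 0.0215% and 0.00718%. At an unadjusted p under 0.05 both tools also counted 0 members. The shares beside this were 4.83%, 6.55% and 4.01% of 26805 models for DESeq2, and 7.76%, 6.04% and 3.95% of 13933 for limma.

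Properties that the rule did not use also differed between members and the other models of the level band. These are descriptions over models, which are not independent replicates. Members were longer, with a median length of 1506 bases against 1134 bases. Of the models of at least 2000 bases 8.78% were members (36 of 410), of those from 1000 to under 2000 bases 4.43% (37 of 836), of those from 500 to under 1000 bases 3.2% (20 of 625), and of those under 500 bases 3.08% (7 of 227). Lengths divisible by 3, as coding lengths are, made up 93 of 100 members and 93.9% of the other models. The shortest member, evm.model.scaffold323.11, had 336 bases and 145, 175 and 134 CPM in DO2, 152, 127 and 138 CPM in DO4, and 143, 115 and 157 CPM in DO8. The longest, evm.model.scaffold1015.3, had 8223 bases and 58.3, 71.3 and 49.6 CPM in DO2, 51.9, 56.2 and 66.3 CPM in DO4, and 46.3, 51.6 and 61.9 CPM in DO8. Both had overlapping groups in every comparison.

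Per unit of length, the members covered a wide range. Mean FPKM in DO8, a level per length that the authors computed, ran from 7.08 in evm.model.scaffold1015.3 to 1694 in evm.model.scaffold31.39, 444 bases long, with a median of 79.7 against 105.8 for the other models of the level band. Model evm.model.scaffold31.39, named after its value was seen, had 1453, 1849 and 1779 FPKM in the DO8 libraries. By CPM, 45 members had a DO8 mean from 50 to under 100, 37 from 100 to under 200 and 18 from 200 to under 1000. These are 4.11%, 6.7% and 3.99% of the models at those levels.

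Expected counts have a decimal part where reads were divided among models. They were whole numbers in all 9 libraries for 65 of the 100 members, against 46.1% of the other models of the level band. They had a decimal part in every library for 22 members. Of the other models, 43.5% had a whole number in no library, where a library that did not list the model also counted as not whole. All 9 libraries listed 98.2% of these other models. The steadiest member and evm.model.scaffold1569.1 are among the members with divided reads, so the level of each depends on how the authors' counting shared them. Identifiers of 9 members contain the word exonerate, which is 14.5% of the 62 such models of the level band. The 91 members with identifiers that start with evm.model are 4.55% of 2001, and none (0) of the 35 models that start with add.evm.model was a member. The exonerate models held ranks 1, 4, 5, 16, 17, 45, 70, 76 and 90. Their lengths ran from 852 to 3717 bases.

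The members were scattered over 94 scaffolds. Only evm.model.scaffold1458.2 and evm.model.scaffold1458.3 carried consecutive numbers. The first had 51.1, 63.4 and 79.4 CPM in DO2, 63.0, 61.0 and 56.1 CPM in DO4, and 57.3, 66.8 and 89.2 CPM in DO8. The second had 154, 170.4 and 120.4 CPM in DO2, 192, 149 and 143 CPM in DO4, and 148, 152 and 178 CPM in DO8. Both had whole-number counts in all 9 libraries, and both had a high value in DO8 library 3, but in DO2 library 3 the first was at its DO2 maximum and the second at its DO2 minimum. A further 18 models of the level band were numbered next to a member. Their SDs ran from 0.28 to 2.82 with a median of 0.54, against a median of 0.63 for all 1910 models of the level band whose identifiers start with evm.model and that are not members.

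Steadiness was next measured in libraries that the choice had not used. Each library was left out in turn, the 100 steadiest models were chosen again from the other 8, and the level in the library left out was compared with the mean of those 8 (all on the scaling of the 9 libraries together). For the chosen models the median absolute deviation was 0.23, 0.26 and 0.27 log2 units in the DO2 libraries, 0.33, 0.28 and 0.36 in the DO4 libraries, and 0.14, 0.16 and 0.21 in the DO8 libraries. For the other models of the level band it was 0.43, 0.47 and 0.44 in DO2, 0.56, 0.42 and 0.66 in DO4, and 0.39, 0.43 and 0.42 in DO8. The chosen models thus deviated less than the other models in each of the 9 libraries, and each DO4 library gave them a larger deviation than any DO2 or DO8 library. Of 900 such values, 83.3% lay within 0.5 log2 units (a ratio of 1.41) and 22 (2.44%) beyond 1 log2 unit, against 53.1% and 20.5% for the other models.

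**Figure D4:**
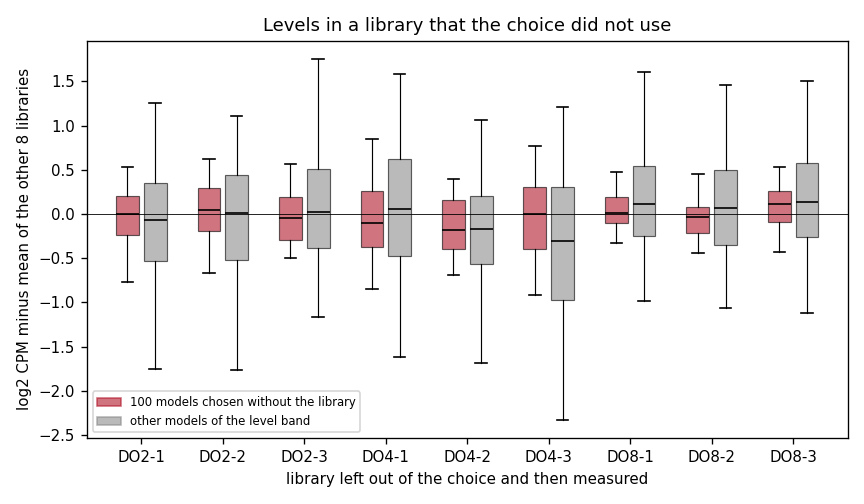
Level in a library left out of the choice, minus the mean of the other 8 (log2 CPM), for the 100 models chosen without that library (red) and the other models of the level band (grey). Boxes span the quartiles with a line at the median, and whiskers run from the 5th to the 95th percentile. The red boxes are narrower in all 9 libraries and narrowest in the DO8 libraries.

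Of the 22 values beyond 1 log2 unit, 7 were in DO4 library 1, the library with the lowest total. The part of depth in this count was not tested. The farthest was evm.model.scaffold818.30 in DO2 library 1, named here after its values were seen. It ranked 35 of 100 without that library, with an SD of 0.21 in the other 8. It had 6.27 CPM (20 counts) in DO2 library 1 and 95.1 and 80.4 CPM in the other DO2 libraries, with 80.8, 57.2 and 73.35 CPM in DO4 and 77.1, 73.3 and 80.8 CPM in DO8. The deviation was -3.48 log2 units, in a single pool of its group. The next, also named after their values were seen, were evm.model.scaffold270.30 and evm.model.scaffold357.6. Both were low in DO4 library 1 (-1.80 and -1.67 log2 units), at 38 and 19 counts.

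Means of several members were measured in both ways. The mean log2 CPM of the 10 steadiest members had an SD of 0.04 over the 9 libraries, and that of the 3 steadiest an SD of 0.10. When the 10 steadiest were chosen without a library, their mean in that library deviated by -0.29 (DO8 library 2) to 0.18 (DO2 library 1) log2 units. With the 3 steadiest the range was -0.25 (DO4 library 2) to 0.20 (DO2 library 1).

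Whole groups were left out in the same way. Chosen from DO4 and DO8 alone, 100 models had a median absolute difference of 0.17 log2 units between their DO2 mean and the mean of the 6 libraries that chose them, against 0.30 for the other models. In 6 of the 100 it exceeded 0.5, against 27.5%. Chosen from DO2 and DO8, the models differed in DO4 by a median of 0.24, against 0.38 for the other models, with 13 of 100 beyond 0.5, against 39.2%, and 64 of the 100 were lower in DO4, against 63.3%. Chosen from DO2 and DO4, at 50 to under 1000 CPM in those groups, they differed in DO8 by a median of 0.18 against 0.41, with 10 of 100 beyond 0.5 against 40.8%. In a choice from the 3 DO8 libraries alone, added after the data were seen, the models had a median SD of 0.06 in DO8. Of these 100 models, 21 differed from DO8 by more than 0.5 in DO2 and 26 in DO4, against 43.0% and 52.7% of the other models. Only 21 of the models steadiest in DO8 alone were among the 100 members.

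The choice depended on the scaling of the libraries. The members held 1.88%, 1.76% and 0.732% of all expected counts in the DO2 libraries, 1.28%, 1.92% and 2.16% in the DO4 libraries, and 1.75%, 1.93% and 1.89% in the DO8 libraries. A choice for equal levels after TMM scaling makes these shares follow the TMM factors and the scaled sums even, so neither is a result. The other models of the level band also had their lowest share in DO2 library 3, and held 19.75% of the counts there and 31.25% to 37.39% in the other 8 libraries. After TMM scaling the summed level of the members was 17140, 16930 and 16110 CPM in DO2, 16780, 15330 and 17300 CPM in DO4, and 16480, 15990 and 16700 CPM in DO8. With counts scaled to the library total alone, the members were lower in DO2 library 3 by a median deviation of -1.13 log2 units and in DO4 library 1 by -0.40, and 10 of the 100 members were chosen again. Without DO2 library 3, 35 of the members were chosen with total counts alone (an alternative added after the data were seen), and 74 with TMM. These lists from the same 8 libraries, with total counts alone and with TMM, shared 30 of 100 models, so the dependence on scaling remained without DO2 library 3. Whether the members or the total stayed constant per cell was not measured.

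**Figure D5:**
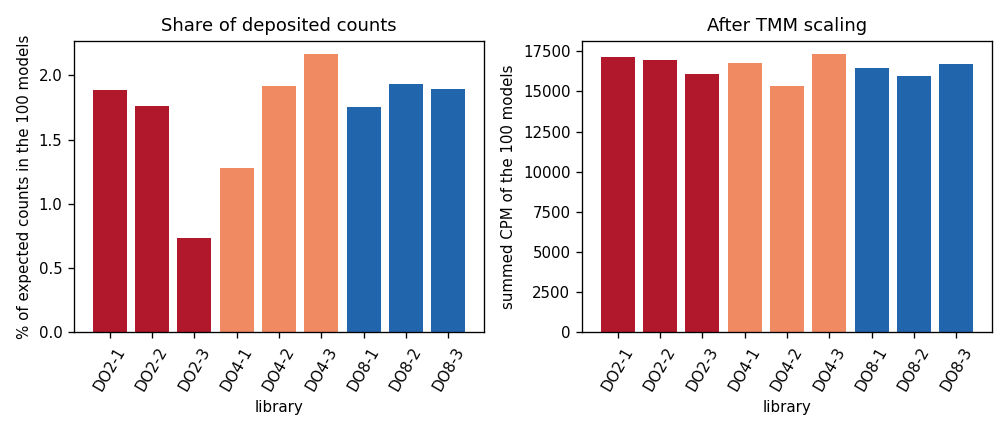
Left, percentage of each library's expected counts that fell in the 100 members; right, their summed CPM after TMM scaling. The share is 0.732% in DO2 library 3 and 1.28% in DO4 library 1, against 1.75% to 2.16% in the other 7 libraries, and the scaled sums run from 15330 to 17300 CPM. A choice for equal TMM-scaled levels makes the shares follow the TMM factors and the sums even. The other models of the level band (not drawn) held 19.75% of the counts in DO2 library 3 and 31.25% in DO4 library 1. In the other 7 libraries they held 33.87% to 37.39%.

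Agreement between scalings that correct for composition was closer. Of the 100 members, 95 were chosen again with DESeq2 size factors and 89 with upper-quartile factors, and 86 with both. Without each single library in turn, 70 to 91 members were chosen again, and 49 members in all 9 of these choices. The members chosen under each of 24 alternative choices (other scalings, filters, measures of spread and libraries) numbered 3. These were evm.model.scaffold1569.1, given above, mRNA.scaffold1801.extract.exonerate.1005 and evm.model.scaffold1329.4. The exonerate model had 104, 92.7 and 126 CPM in DO2, 94.5, 105 and 82.7 CPM in DO4, and 117, 111 and 106 CPM in DO8. Every DO4 library lay below every DO8 library, by -0.25 ± 0.11 log2 units (SE), and the DO2 libraries, from 92.7 to 126 CPM, overlapped both groups. Model evm.model.scaffold1329.4 had 77.1, 80.4 and 94.1 CPM in DO2, 70.6, 57.8 and 85.3 CPM in DO4, and 82.2, 74.9 and 72.7 CPM in DO8, with all groups overlapping.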

How the data were processed

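Poly(A) RNA of 9 pools was sequenced on the BGISEQ-500, per the labels' protocols. Groups and replicate numbers come from the sample titles. Per the file headers, each deposited table lists a gene model, its length, an expected count (the authors' estimated count, not normalized) and an FPKM value computed by the authors. The submitters' processing notes name CASAVA 1.5. Which aligner, counting program, build and annotation were used is not given in the sources used here. Models missing from a table were set to 0 there.

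Expected counts were rounded, filtered with filterByExpr by group (98.9% of counts kept) and scaled by TMM in edgeR 4.0.16 (R 4.3.3). Log2 CPM used a prior count of 2. Counting SDs were derived from the Poisson variance of the counts, and cover counting error only. A count of 3, the limit that a count of 0 allows, was 0.701 to 2.55 CPM. The edgeR quasi-likelihood fit (robust, 1 coefficient per group, all 9 libraries) and limma 3.58.1 on log2(FPKM + 1) gave adjusted p-values over the 13933 models kept. DESeq2 1.42.0 was run without that filter and gave unadjusted p-values for 26805 models. It gave adjusted ones for 15789 models for DO2 and DO8, and for 13706 in each of the other comparisons. The edgeR fit and the choice of the steadiest models were tested on simulated data with planted changes and planted small spreads. The planted changes were far larger than the differences of the members, so that test says nothing about the members or the calls. SEs of differences combine the SDs of the 2 groups. P-values set a difference between groups against the spread between pools. The labels do not give tanks, so an effect of tank cannot be told apart from one of oxygen level.

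Models named in the text are the 10 members with the smallest SD, those with the highest and lowest DO8 CPM, the 3 models on each side of rank 100, models just outside the level bounds, the 3 largest differences per comparison, consecutively numbered members, the longest and shortest members and those chosen under every alternative choice. Exceptions are named as such. The members, lists and tests were chosen with earlier results of these data known.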

Additional observations from a re-analysis of the deposited data

How the results depend on the processing

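Scalings without a correction for composition changed the list. With total counts alone 10 members were chosen again, and on log2(FPKM + 1) 11. The median SD of the members was then 0.528 and 0.512, and their median absolute difference between DO2 and DO8 was 0.517 and 0.505 log2 units. On total counts, a single DO2 library stood far below the DO8 libraries. The median deviation of the members was 0.16, 0.11 and -1.13 log2 units in DO2 libraries 1 to 3. In DO8 libraries 1 to 3 it was 0.11, 0.26 and 0.25. The cause of the change on FPKM values was not tested. Shifting the FPKM libraries to the same median gave 83 members again. Ranking by the SD of log2 ratios to the other models of the level band gave 62, leaving out DO2 58, leaving out DO4 51, and leaving out DO8 68. Of the alternatives added after the data were seen, leaving out DO2 library 3 and DO4 library 1 together gave 55, choosing from DO8 alone 21, and total counts without DO2 library 3 35. Without 1 library at a time 70 to 91 members were chosen again. No filter on low counts gave 92, a prior count of 0.5 gave 100, ranking by range 88, by SD in excess of counting error 93, and a level set on all 9 libraries 96. The count of members called was 0 in all alternatives run, DESeq2 and limma included. The main edgeR fit called 0% of all 13933 models in each comparison, and shares of all models in the alternative edgeR fits are not given here. A choice for small spread also makes 0 members likely, so the count says nothing about stability.

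The replicate numbers were not shown to pair libraries: deviations of same-numbered libraries from their group means had a Pearson's r across models of -0.169 to 0.0678. With the replicate number as a block (replicate block) 80 members were chosen again and 0 were called. The share of all models called with the block is not given here, and without it edgeR called 0% of 13933 models in each comparison. Counting error alone gives the members SDs of 0.03 to 0.14, with a median of 0.09, which limits how small a spread can be measured for each.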
